A study of Mus musculus with 12 samples.

Results

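Chromatin silencing in mammalian cells rests on a small set of enzymes and adaptors. DNA methyltransferases place methyl groups on cytosine (Dnmt3a and Dnmt3b write new marks and Dnmt1 copies them at replication), Suv39h1 methylates lysine 9 of histone H3, and the adaptor Trim28 is brought to DNA by zinc-finger proteins and gathers silencing enzymes there. Polycomb repressive complex 2 (PRC2) methylates lysine 27 of histone H3 through its catalytic subunit Ezh2, which needs the subunit Eed, and Bmi1 belongs to Polycomb repressive complex 1 (PRC1), which ubiquitinates histone H2A. Hdac1 and Hdac2 are closely related deacetylases that work in shared corepressor complexes. In embryonic stem cells PRC2 and PRC1 hold developmental genes silent, and Trim28 with histone methylation holds many endogenous retroviruses silent.

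These 10 genes were followed on mouse MG_U74Av2 arrays by the platform annotation, taking every probe set (a group of short oligonucleotides that reads a transcript) with a single gene symbol. Of the 10 genes, 8 had a probe set, out of 8251 genes named in this way, with 10 probe sets among them out of 12488 on the array. The others, Dnmt3b and Suv39h1, had none by this rule and were not analysed here. For Dnmt1 and Dnmt3a a second, dim probe set fell below the filter on low values, so 8 probe sets, 1 for each gene, were tested.

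The cells of every group were clone C2, derived from E14tg2a mouse embryonic stem cells, with a pair of targeted recognition sites for the endonuclease I-SceI, so controls and treated cells share this modification and come from a single clone. Controls were kept in phosphate-buffered saline (PBS, n = 3). The low dose was hydrogen peroxide in PBS at 100 µM for 15 min (n = 4), and the high dose was 5 mM for 30 min (n = 5), each followed by 1 h of recovery in maintenance medium. How long the controls stayed in PBS is not given here, nor is a recovery of the controls in medium, so in each comparison with the controls peroxide cannot be told apart from a return to medium. Dose and time also differ together. Separate cultures are not named for the replicates, and p-values therefore measure the spread between these arrays, which may be technical.

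Values are MAS5 signals on a linear scale. Log2 changes are of the signal plus an offset of 10.1, which understates changes of dim probe sets. Within a group the arrays had pairwise r = 0.958 to 0.978 across tested probe sets. The 10 embryonic stem cell markers were all measured, and their summed signal was 26553 to 29677 on the control arrays, 33037 to 38768 after the low dose and 30121 to 35787 after the high dose, so every treated array lay above the controls. Single markers differed in direction. Pou5f1 averaged 4319 in the controls, 4629 after the low dose and 5903 after the high dose, while Sox2 averaged 3648, 5633 and 3107. An extraembryonic lineage that can arise in such cultures is primitive endoderm, and the summed signal of its markers was lowest after the high dose. The summed signal of the 12 markers, all of them measured, was 6637 to 10925 on the control arrays, 9985 to 10958 after the low dose and 1182 to 1304 after the high dose, with none at 0. The control and low-dose sums overlapped, and single markers differed. Gata6 averaged 182, 635 and 23.6, Lama1 averaged 1634, 1318 and 317, and Gata4 averaged 209, 282 and 194. The 10 fibroblast markers, of which 7 passed the filter on low values, summed to 1218 to 1465, 1525 to 1947 and 1305 to 1675. They too differed in direction, as Fn1 averaged 551, 889 and 657 and Thy1 averaged 109, 30.9 and 111. The part of these marker changes in the results below was not tested. In bulk RNA, fewer cells of a type and less RNA per cell cannot be told apart.

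After the low dose the silencing genes divided. Ezh2 and Hdac1 fell, Trim28 and Bmi1 rose, and Eed, Dnmt1, Dnmt3a and Hdac2 did not pass the test (limma, Benjamini-Hochberg adjusted p under 0.05). These 4 of 8 probe sets stand beside 24.0% of all 8695 tested probe sets called in this comparison (12.8% higher and 11.2% lower). After the high dose Ezh2 and Hdac1 were near the control values, Trim28 was higher still and Bmi1 was below the controls, a count of 2 called of 8 beside 11.7% of all tested (5.68% higher and 6.03% lower). Between the doses 5 of 8 differed, 3 higher and 2 lower after the high dose, beside 27.4% of all tested (12.8% higher and 14.6% lower). The median log2 change over the 8 was 0.09 after the low dose, -0.06 after the high dose and 0.10 for high against low, beside 0.04, -0.01 and -0.04 over the 6414 genes tested. The 8 genes were chosen with earlier results of these data known, so these shares cannot be read as a result about the genes as a set. The comparisons with the controls share the same 3 control arrays.

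**Figure D1:**
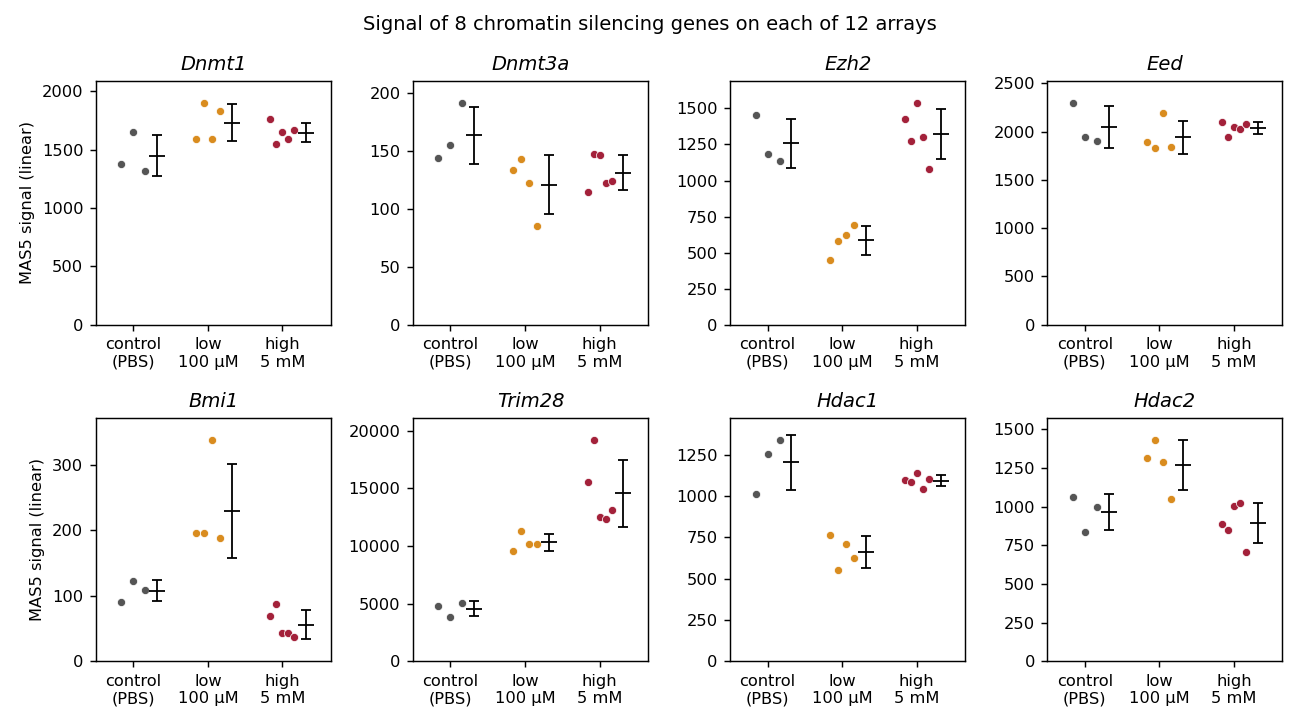
MAS5 signal (linear axis from 0) of 8 silencing genes on each array (points) by group, with the group mean and SD beside them (bars; n = 3, 4 and 5). Ezh2 and Hdac1 are lowest on the low-dose arrays, Bmi1 is highest there, and Trim28 is higher on every treated array than on any control array.

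Ezh2 is the methyltransferase of PRC2. It read 1452, 1184 and 1136 on the control arrays, 451, 580, 619 and 689 after the low dose, and 1429, 1274, 1537, 1305 and 1079 after the high dose. All low-dose arrays lay below all others, while the control and high-dose arrays overlapped. The log2 change was -1.10 ± 0.16 (SE) after the low dose, or 2.14-fold lower (adjusted p = 2.03e-04). High dose against control gave 0.07 ± 0.15 (adjusted p = 0.801), with a 95% interval from -0.24 to 0.39. High against low dose gave 1.17 ± 0.14 (adjusted p = 1.34e-05).

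Eed, the subunit of PRC2 that binds methylated lysine 27, did not pass the test in any comparison. Its signals were 1905 to 2295 in the controls, 1829 to 2199 after the low dose and 1946 to 2100 after the high dose, and the 3 groups overlapped. The log2 values were -0.08 ± 0.11 after the low dose (adjusted p = 0.669, 95% interval -0.32 to 0.16) and -0.00053 ± 0.11 after the high dose (adjusted p = 0.998, interval -0.23 to 0.23). The low-dose interval of Eed does not reach the change measured for Ezh2.

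For signals far above the offset, a difference between 2 probe sets on the same array is little moved by a constant factor applied to that array, though quantile or cyclic loess normalization can move it. On the log2(signal + offset) scale, the difference of Ezh2 minus Eed was -0.70 ± 0.04 (SD, n = 3) in the controls, -1.72 ± 0.27 (n = 4) after the low dose and -0.63 ± 0.19 (n = 5) after the high dose. All low-dose arrays, from -2.05 to -1.40, lay below all others. In exact two-sided permutation tests, p was 0.0286 for low dose against control and 0.00794 for high against low dose, the smallest these group sizes allow (0.0429 and 0.0238 adjusted over the 6 comparisons of this kind), and 0.554 for high dose against control. These differences were chosen after the values had been seen, and the adjustment does not account for that choice.

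None of the other PRC2 genes on a list of subunits and cofactors was called lower after the low dose. Of 8 tested, 4 rose, none fell and 4 did not pass, beside 761 higher and 817 lower of all 6414 genes (24.6%). The median log2 change was 0.40, beside 0.04 over all genes. Jarid2, a cofactor that helps to bring PRC2 to its targets, rose from 1907 ± 114 (SD, n = 3) to 2908 ± 232 (n = 4), a log2 change of 0.60 (adjusted p = 0.00467; 0.0663 with common median scaling). The targeting cofactors Phf1 and Mtf2 rose by 0.70 and 0.72, the call of Mtf2 being lost with common median scaling and without control replicate 3 or low-dose replicate 4. Suz12, a core subunit, had the largest change, at 1.12 (adjusted p = 0.037). Its control arrays read 95.1, 479 and 409, and without control replicate 1 the value was 0.42 (adjusted p = 0.141). The call of Suz12 was lost in 10 of 23 alternatives, but 2 further probe sets of it rose by 1.07 and 0.69. Against the controls, Jarid2 rose after the high dose by 0.42, a call lost in 16 of 23 alternatives, and Aebp2, another cofactor, fell by 0.50 (lost in 10). Between the doses Aebp2 was lower after the high dose by 0.68 in log2 units and Phf1 by 0.59.

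The Ezh2 promoter holds letters that the cell cycle regulators of the E2F family are known to bind, shown here because Ezh2 fell after the low dose. Promoter windows of 250 bases before to 50 after a transcript start came from RefSeq (GRCm38.p6) and matched 7 of the 8 measured genes. They were searched on both strands for 9 spellings, among them E2F (TTTGGCGC and TTTCGCGC), the E-box (CACGTG), the GC box (GGGCGG), the CCAAT box (CCAAT) and CRE (TGACGTCA). TTTGGCGC lies at bases 4 to 11 after the annotated Ezh2 start and occurs in 0.514% of 32851 promoter windows. Dnmt1 has the same letters at 34 to 41 after 1 of its starts, and TTTCGCGC at -219 to -212 from that start. A match is a description of letters, not a binding site. The stretch of 30 bases around it (chr6:47595009-47595038, minus strand, 5′ to 3′) has the E2F letters in capitals.
Ezh2: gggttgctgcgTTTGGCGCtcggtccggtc

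Bmi1, a ring-finger subunit of PRC1, moved in opposite directions with the doses. It read 91.3, 123 and 109 in the controls, 195, 196, 338 and 188 after the low dose, and 70.0, 87.8, 42.9, 42.7 and 38.0 after the high dose. The groups did not overlap in any of the 3 comparisons, and low-dose replicate 3 stood above the other low-dose arrays. The log2 change was 0.99 ± 0.27 after the low dose, or 1.99-fold (adjusted p = 0.0142). Without low-dose replicate 3 it was 0.80 (adjusted p = 0.0454). At the high dose the value was 1.84-fold lower, a log2 change of -0.88 ± 0.25 (adjusted p = 0.0351). That call was lost in 8 of 23 alternatives, with adjusted p = 0.138 without control replicate 2, 0.099 without control replicate 3 and 0.0676 to 0.0768 without high-dose replicates 3, 4 or 5. High against low dose gave -1.87 ± 0.23, or 3.65-fold (adjusted p = 2.5e-05), and stayed called in all 23 alternatives. This is a dim probe set, in the class under 200, where 16.1% of 4803 probe sets were called after the low dose and 7.14% after the high dose.

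The 250 bases before the Bmi1 start (chr2:18676768-18677017, plus strand, 5′ to 3′) are shown because Bmi1 was called in opposite directions at the doses. The high-dose call was lost in 8 of 23 alternatives. Capitals mark an E-box, the letters read by factors such as Myc, and 6 GC boxes on either strand, some of them overlapping. The spelling TGACNNNGC (ARE, with N for any base), also searched, matched at -211 to -203 and is not marked. It occurs in 12.4% of promoter windows and matched in the Ezh2 window at -177 to -169. The E-box letters occur in 7.15% and the GC box in 35.7% of promoter windows.
Bmi1: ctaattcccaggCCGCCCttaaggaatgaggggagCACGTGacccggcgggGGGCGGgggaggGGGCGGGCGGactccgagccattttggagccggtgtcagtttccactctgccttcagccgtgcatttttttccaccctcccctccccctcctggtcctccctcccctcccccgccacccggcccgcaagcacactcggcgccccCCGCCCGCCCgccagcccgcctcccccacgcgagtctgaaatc

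Among 10 other genes tested from a list of PRC1 genes and factors linked to Polycomb, 1 rose, 3 fell and 6 did not pass after the low dose. That is 40.0% called, beside 24.6% of all genes, with a median of -0.25 beside 0.04. The gene that rose was Yy1, a DNA-binding factor linked to Polycomb, from 506 ± 88.9 to 975 ± 94.8, a log2 change of 0.94 (adjusted p = 3.51e-04). On the high-dose arrays Yy1 read 462 ± 51.9 (n = 5). Its high against low value was -1.06. Yy1 thus had its highest signals after the low dose, as Bmi1 did. A dimmer probe set of Yy1 averaged 36.2 in the controls, 90.4 after the low dose and 66.6 after the high dose. It rose by 1.23 after the low dose (adjusted p = 0.0108). It was not called after the high dose (0.79, adjusted p = 0.0996) or between the doses (-0.43, adjusted p = 0.27). The members that fell were Pcgf5 (-0.93, a call lost in 12 of 22 alternatives), Cbx2 (-0.72, lost without control replicate 2) and Cbx6 (-0.67). Dimmer probe sets of Cbx2 and Cbx6 gave 0.09 and 0.37, and neither passed. After the high dose 1 of the 10 was called, a fall (10.0%, beside 12.2% of all genes). This was the scaffold gene Phc2, from 76.2 ± 27.2 to 19.1 ± 9.43 (-1.57, adjusted p = 0.0169). The call was lost without control replicate 1 or 3. The high-dose mean of Phc2 lay at the signal of the filter on low values, 19.1. Between the doses Cbx6 was higher by 0.75 after the high dose, and its dimmer probe set gave -0.25 (adjusted p = 0.371).

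On the deposited scale Trim28 had the largest change against the controls of the 8 genes, at both doses. Its protein is the adaptor that links zinc-finger repressors to silencing enzymes. It read 4806, 3863 and 5065 in the controls, 9543, 11340, 10195 and 10194 after the low dose, and 15526, 19208, 12543, 12362 and 13172 after the high dose. No array of any group overlapped with another group. The log2 change was 1.18 ± 0.16 after the low dose, or 2.26-fold (adjusted p = 1.58e-04), and 1.66 ± 0.16 after the high dose, or 3.15-fold (adjusted p = 3.52e-06). High against low dose gave 0.48 ± 0.14 (adjusted p = 0.0198).

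The signal scale of the control arrays bears on the size of this rise. The highest signal of any probe set on a control array was 8904, below Trim28 on every treated array. Of 80 tested probe sets with a control mean within the control range of Trim28 (Trim28 included), 34 were higher, none was lower after the high dose (limma) and the median log2 change was 0.38, with 8 changes above that of Trim28. At the low dose 26 were higher and 12 lower, the median was -0.01 and 12 lay above Trim28. With quantile normalization the change of Trim28 was 0.90 (adjusted p = 9.68e-05) after the high dose and 0.74 (adjusted p = 5e-04) after the low dose, and with cyclic loess normalization, which removes array differences that depend on signal, 1.19 and 1.00. The rise against the controls was called in all 23 alternatives, and the difference between the doses was not called with quantile (0.16, adjusted p = 0.277) or cyclic loess normalization (0.19, adjusted p = 0.178), nor without low-dose replicate 1 (0.44, adjusted p = 0.0554). The array carries 1 probe set for Trim28, so no second one can be set beside it.

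**Figure D2:**
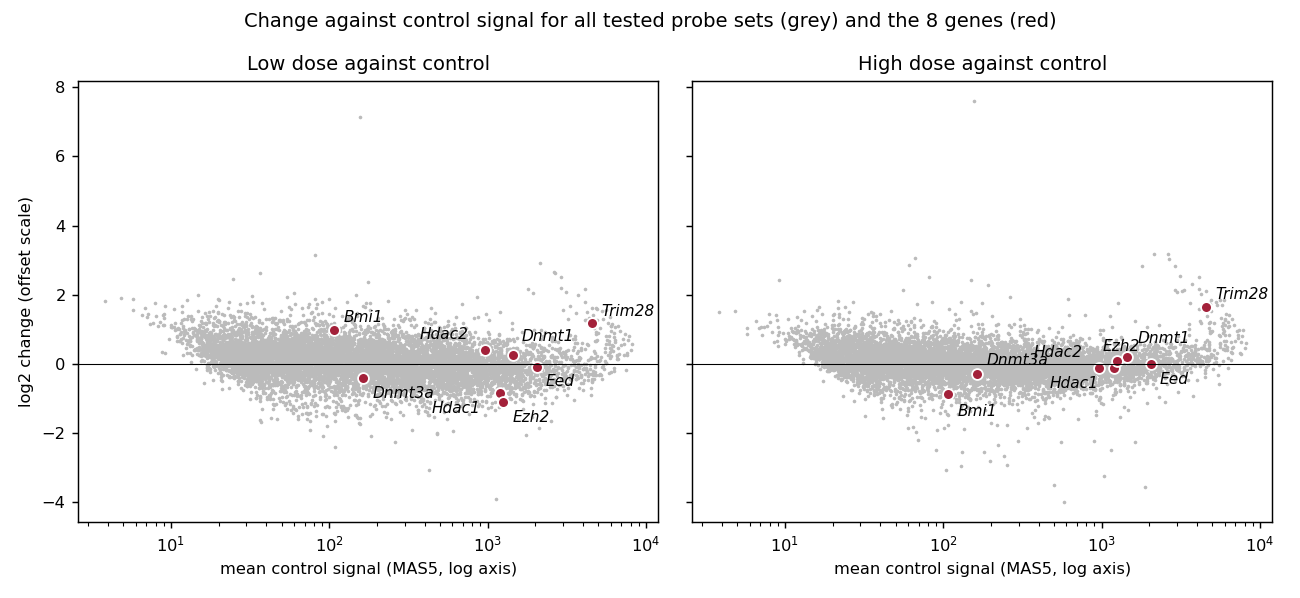
Log2 change (offset scale) against mean control signal (log axis) for all 8695 tested probe sets (grey) and the 8 genes (red) at each dose. Trim28, at a control mean of 4578, lies where bright probe sets spread upward, while the fall of Ezh2 and Hdac1 after the low dose lies on the lower side of probe sets of like signal.

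A stretch of 30 bases of the Trim28 promoter (chr7:13024041-13024070, plus strand, 5′ to 3′) is shown because Trim28, like Bmi1, was called at both doses. It holds both GC boxes found there, in capitals, and none of the E2F, E-box, CCAAT or CRE letters was found in its window.
Trim28: gccCCGCCCaccctgtattgtcCCGCCCct

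Among 10 tested genes that act with Trim28 or on lysine 9 of histone H3, none rose, 3 fell and 7 missed the threshold after the low dose. This share of 30.0% is near the 24.6% of all genes, and the median log2 change was 0.03 beside 0.04. Ehmt2, which encodes the lysine 9 methyltransferase G9a, had the largest fall, from 1385, 1939 and 1698 in the controls to 681, 593, 562 and 841 after the low dose, with no overlap. The log2 change was -1.31 ± 0.16, or 2.49-fold (adjusted p = 4.53e-05). At the high dose it read 1220 ± 139 (SD, n = 5), with a value of -0.45 (adjusted p = 0.0652), and high against low dose gave 0.87 (adjusted p = 2.21e-04). The histone chaperone gene Daxx fell by 0.56 (adjusted p = 0.0168), a call lost without control replicate 2 or low-dose replicate 2 (adjusted p = 0.0698 and 0.0502). Chaf1b, another, fell by 0.65 (adjusted p = 0.0299), a call lost in 6 of 23 alternatives, with adjusted p = 0.143 without control replicate 3. After the high dose 1 of the 10 was called (10.0%, beside 12.2% of all genes). This was Cbx5, the gene of the lysine 9 reader HP1 alpha, which rose by 0.93 (adjusted p = 0.00418). Another probe set of Cbx5 gave -0.14 (adjusted p = 0.597). Both probe sets of Cbx5 were higher after the high dose than after the low dose, by 1.32 and 0.59.

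Neither DNA methyltransferase passed the test in any comparison. Dnmt1, the maintenance enzyme, read 1377, 1649 and 1320 in the controls, 1594, 1899, 1595 and 1830 after the low dose, and 1763, 1553, 1649, 1596 and 1666 after the high dose. Both treated groups overlapped with the controls through control replicate 2, and they overlapped with each other. The log2 values were 0.26 ± 0.12 (adjusted p = 0.126, 95% interval 0.01 to 0.51) and 0.19 ± 0.11 (adjusted p = 0.308, interval -0.05 to 0.43), and the value between the doses was -0.07 ± 0.10 (adjusted p = 0.665). Its dim probe set read 6.08 to 35.7 in the controls, 6.74 to 23.7 after the low dose and 3.36 to 29.0 after the high dose and was not tested.

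Dnmt3a, a de novo enzyme, read 144, 156 and 191 in the controls, 133, 143, 123 and 85.1 after the low dose, and 114, 148, 147, 122 and 124 after the high dose. The control and low-dose arrays did not overlap, by a margin of less than 1 signal unit. The low-dose value was -0.42 ± 0.19 (adjusted p = 0.121, 95% interval -0.82 to -0.02), which passed with arrays scaled to a common median (-0.60, adjusted p = 0.0304). High dose against control gave -0.30 ± 0.18 (adjusted p = 0.321). The other probe set read 0.390 to 10.2 over all arrays, near the bottom of the scale, and was not tested.

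Uhrf1, which brings Dnmt1 to newly copied DNA, passed the test where Dnmt1 did not. It read 1615, 1660 and 1649 in the controls, 956, 932, 1040 and 1069 after the low dose, and 2030, 2227, 2274, 1893 and 2245 after the high dose. The 3 groups were separate. The low-dose change was -0.71 ± 0.11, or 1.64-fold lower (adjusted p = 3.56e-04), and high against low dose gave 1.09 ± 0.10 (adjusted p = 8.25e-07). The high-dose value of 0.37 (adjusted p = 0.0311) lost its call in 10 of 23 alternatives. Of the 9 DNA methylation genes tested, Uhrf1 was the single call after the low dose, a fall (11.1%, beside 24.6% of all genes), and Uhrf1 and Tet1 were called higher after the high dose (22.2%, beside 12.2%). Tet1, an enzyme that oxidises methylcytosine, rose from 33.3 ± 15.5 to 113 ± 67.4 (1.43, adjusted p = 0.0179, or 0.08 without control replicate 1), and its other probe set gave 1.20 (adjusted p = 0.0801). Between the doses 2 were higher and 1 lower after the high dose (33.3%, beside 29.0% of all genes). Uhrf1 and Mbd3 were higher, Mbd3 by 0.43 (adjusted p = 0.0278, lost in 5 of 23 alternatives). The methyl-CpG reader gene Mbd1, a dim probe set, was lower, at 22.8 ± 14.9 after the high dose against 56.7 ± 11.2 after the low dose (-1.15, adjusted p = 0.0159).

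Hdac1 fell after the low dose, while Hdac2 did not pass the test there. Hdac1 read 1016, 1255 and 1340 in the controls, 767, 552, 708 and 624 after the low dose, and 1099, 1088, 1139, 1045 and 1101 after the high dose. All low-dose arrays lay below all others, and the high-dose arrays, with the narrowest spread, lay within the control range. The log2 change was -0.85 ± 0.13 after the low dose, or 1.81-fold lower (adjusted p = 3.63e-04). At the high dose it was -0.13 ± 0.13 (adjusted p = 0.566, 95% interval -0.39 to 0.14), and high against low dose gave 0.73 ± 0.12 (adjusted p = 2.36e-04).

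Hdac2 read 1062, 833 and 997 in the controls, 1316, 1431, 1291 and 1046 after the low dose, and 888, 847, 1003, 1025 and 709 after the high dose. Low-dose replicate 4 lay just inside the control range, and the other low-dose arrays above it. The low-dose value was 0.39 ± 0.15 (adjusted p = 0.0652, 95% interval 0.08 to 0.71). It passed in 5 of 23 alternatives, among them quantile normalization (0.46, adjusted p = 0.0288) and the fit without low-dose replicate 4 (0.48, adjusted p = 0.0311). The high-dose value was -0.11 ± 0.14 (adjusted p = 0.664). High against low dose passed, at -0.51 ± 0.13 (adjusted p = 0.00863), a call lost with common median scaling (-0.39, adjusted p = 0.0904).

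Within each array, the log2 difference of Hdac1 minus Hdac2 was 0.32 ± 0.34 (SD, n = 3) in the controls, -0.93 ± 0.29 (n = 4) after the low dose and 0.30 ± 0.22 (n = 5) after the high dose. Low-dose arrays ranged from -1.36 to -0.74 and all lay below the others, of which control replicate 1 was lowest at -0.06. In exact two-sided permutation tests, p was 0.0286 for low dose against control and 0.00794 for high against low dose, the smallest possible here (0.0429 and 0.0238 adjusted over 6), and 0.946 for high dose against control. This pair was also chosen after its values had been seen, and the adjustment over 6 does not account for that choice.

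**Figure D3:**
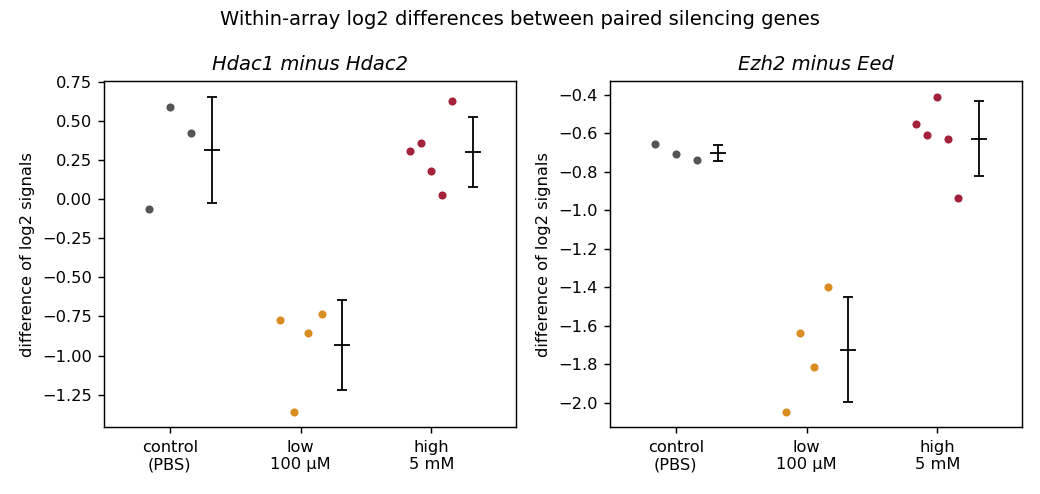
Difference of log2(signal + offset) on the same array (points) for Hdac1 minus Hdac2 and Ezh2 minus Eed, with group mean and SD (bars; n = 3, 4 and 5). All low-dose arrays lie below every control and high-dose array in both panels, with low-dose means of -0.93 and -1.72.

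Of 19 other genes of deacetylase complexes tested, 3 rose, 1 fell and 15 did not pass after the low dose, with a median of 0.07 beside 0.04. That is 21.1%, near the 24.6% of all genes. Kdm1a, a lysine 4 demethylase found in such complexes, rose from 46.4 ± 14.6 to 115 ± 27.0 (1.15, adjusted p = 0.0114, or 0.0516 without control replicate 3). Sap30, of the Sin3 complex, rose by 0.71. The class II deacetylase gene Hdac7 rose by 0.58 (adjusted p = 0.0286), a call lost in 7 of 23 alternatives, among them common median scaling (adjusted p = 0.16), quantile normalization (0.0551) and the fits without any 1 control array (0.0595 to 0.0733). The Sin3 scaffold gene Sin3a fell by 0.37 (adjusted p = 0.0354, lost in 8 of 23 alternatives). After the high dose 1 of the 19 was called against the controls (5.26%, beside 12.2% of all genes). This was Tbl1xr1 of the nuclear corepressor complex, which fell by 0.73 (adjusted p = 0.0169, lost with the replicate block and without control replicate 2). Between the doses 4 were higher and 3 lower after the high dose (36.8%, beside 29.0% of all genes). Chd4, the remodeller of the NuRD complex, was higher by 0.90 and Sap30 lower by 0.89.

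Over the lists of silencing factors that exclude the 8 genes, 56 genes were tested in all. After the low dose 8 rose and 8 fell (28.6%), beside 24.6% of all 6414 genes. After the high dose 4 rose and 3 fell (12.5%, beside 12.2%), and between the doses 10 were higher and 7 lower (30.4%, beside 29.0%). These shares are near those of all genes. A list of 16 chromatin activators and remodellers, which also holds the lysine 4 demethylase genes Kdm5a and Kdm5b, had 4 higher and 1 lower after the low dose (31.2%, beside 24.6%). Smarca5 was up by 0.88 (another probe set gave 0.13), Kdm5b was up by 0.62 and Smarca4 was down by 0.65. At the high dose 1 was higher and 2 lower (18.8%, beside 12.2% of all genes). Ash2l was up by 0.71 (lost without control replicate 2), Crebbp was down by 0.76 and Smarca4 was down by 0.59. Between the doses 1 was higher and 6 lower after the high dose (43.8%, beside 886 higher and 972 lower of all 6414 genes, or 29.0%). Ash2l was higher by 0.54, and Crebbp and Kdm5b were lower by 0.71 and 0.67.

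**Figure D4:**
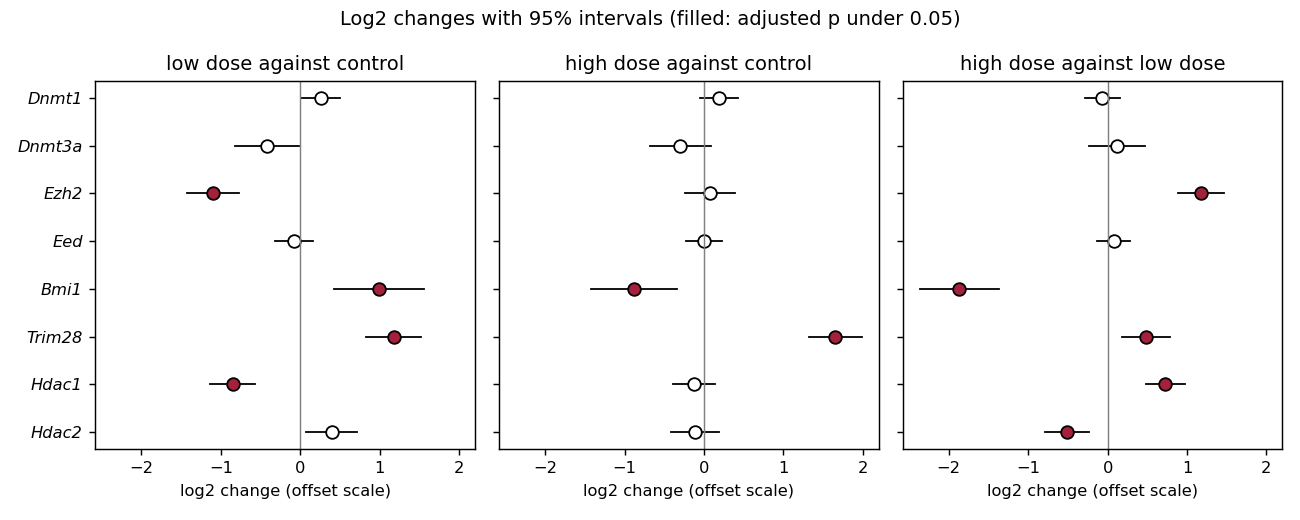
Log2 change (offset scale) of each of the 8 genes in the 3 comparisons (points), with 95% intervals of the limma fit (lines). Filled points passed an adjusted p of 0.05, which 4 did after the low dose, 2 after the high dose and 5 between the doses.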

How the data were processed

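RNA of 12 samples was read on 12 MG_U74Av2 arrays, and groups and replicate numbers came from the sample titles. The deposited values are linear intensities and, per the submitters' processing notes, MAS5 signals. No version, scaling target or detection call of MAS5 is given in these sources. The trimmed means (2% from each end) of the arrays lay within 0.0195% of each other, so the deposited scaling was kept. Values were analysed as log2(signal + 10.1), the offset being the 20th percentile of all values, which understates changes of dim probe sets. After 66 Affymetrix control probe sets were left out, the 8695 probe sets above the 30th percentile of mean log2 value were tested with limma 3.58.1 in R 4.3.3 (eBayes with a trend, a mean per group, all 12 arrays). Tests were two-sided, with Benjamini-Hochberg adjustment over all 8695 and a threshold of 0.05. SE and 95% intervals are those of the fit. Arrays have no read depth, and their number limits the precision.

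Symbols came from the platform annotation, updated by Entrez number through RefSeq (10817 of 10833 single-symbol probe sets matched, while 396 carried several symbols and 1193 none). Each listed gene was read by its brightest probe set (by mean log2 value). Within-array differences were tested with exact permutation tests (scipy 1.17.1). The steps were tested on simulated data. The naming rule took all member probe sets and, per list and comparison, the largest rise and fall past the threshold; other genes are named where a count is listed out or a gene acts with a member. Members and lists were chosen with earlier results of these data known. The 23 alternatives were 3 other scalings, 2 treatments of dim values, 2 filters, 2 variance models, other samples in the fit, the replicate block and each array left out.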

Additional observations from a re-analysis of the deposited data

Results flagged for a closer look

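The signal of Bmi1 on low-dose replicate 3 was 338, against 188 to 196 on the other low-dose arrays, a gap of 0.932 of the group's range. It was the single such value among 20 groups of arrays checked, where chance gives about 1 in 20. The rise of Bmi1 at the low dose was 0.80 without it and 0.99 with it.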

How the results depend on the processing

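Across the 23 alternatives no called change of the 8 genes reversed. At the low dose the falls of Ezh2 (-1.29 to -0.98) and Hdac1 (-1.04 to -0.77) and the rises of Trim28 (0.74 to 1.26) and Bmi1 (0.80 to 1.09) were called under each. The count of member probe sets called was 4 to 5 at the low dose and 4 to 5 between the doses. At the high dose it fell from 2 to 1, through Bmi1, with no filter, with no variance trend and with the replicate block, and was 1 to 2 with arrays left out in turn. The count over all probe sets at the high dose was 1018, and became 1655 with array quality weights, 597 with the replicate block and 490 to 1012 with an array left out (490 without control replicate 2, 599 without control replicate 3). With common median scaling the called probe sets were 33.6% higher at the high dose (48.5% as deposited), 27.8% at the low dose (53.2%) and 61.9% between the doses (46.7%), and quantile normalization gave 44.8% for the middle comparison. The replicate numbers gave no clear sign of pairing. Deviations of same-numbered arrays correlated at -0.178 to 0.148 (10 pairs, 2 over 0.1), beside -0.162 to 0.177 for 37 pairs of different number. With the replicate block the high-dose value of Bmi1 was -0.68 (adjusted p = 0.156). Signs of values that did not pass, such as Eed, turned under some alternatives. The causes were not tested.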
